A study of Mus musculus with 4 samples.

Results

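MHC class I molecules show peptides from the inside of a cell to CD8+ T cells. The proteasome cuts proteins into peptides, the TAP transporter carries the peptides into the endoplasmic reticulum, a loading complex places them on the class I heavy chain, and the heavy chain travels to the cell surface together with beta-2-microglobulin. Interferon switches many of these genes on, and it exchanges catalytic subunits of the proteasome for inducible ones. Tumor cells in which these genes are low are poorly seen by CD8+ T cells, the cells whose response to Aurora-A knockdown tumors the study examined.

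This account follows 10 of the 51905 genes measured: the heavy chain genes H2-K1, H2-D1 and H2-T23, the light chain gene B2m, the transporter genes Tap1 and Tap2, the loading factor gene Tapbp, the inducible proteasome subunit genes Psmb8 and Psmb9, and Nlrc5, which encodes a transactivator of class I genes. They were chosen by name for their roles, and each was found as 1 row of the deposited tables. CT26 and MC38 cells, mouse colon tumor lines, were infected with a lentivirus that expresses a hairpin targeting mouse Aurora-A (shmaurka-1) or, as the control, a hairpin targeting GFP (shGFP), and RNA was taken 48 h after seeding. The labels give both lines the genotype WT, and 1 library was made for each of the 4 combinations, with a single hairpin against Aurora-A. CT26 comes from a BALB/c mouse and MC38 from a C57BL/6 mouse, so the lines carry different H2 haplotypes, the mouse versions of the MHC, and they were also grown in different media. A difference in level between the lines and a difference in how well BALB/c reads are assigned to a C57BL/6 reference cannot be told apart for the heavy chains. Heavy chain genes are close copies of each other, BALB/c carries a further gene of this kind, H2-L, and the sources used here do not say how reads that fit several copies were counted, so all heavy chain values are uncertain. Both hairpin libraries of a line share its haplotype.

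The 4 libraries held between 22207768 and 23752269 fragments, and the deepest held 1.07 times as many as the shallowest. Aurka, which encodes Aurora-A, dropped from 5724 to 1093 fragments in the CT26 libraries and from 2300 to 413 in the MC38 libraries, so it was 4.81-fold lower with shmaurka-1 in CT26 and 5.44-fold lower in MC38. The labels call CT26 a fibroblast and MC38 an epithelial cell. Of the epithelial markers, Epcam and Cdh1 had at most 6 fragments in any library, and Krt18, a keratin, had 1516 and 1485 fragments in the CT26 libraries against 12 and 14 in those of MC38. Of 11 fibroblast and mesenchymal markers, Vim and Fn1 had at least 12373 fragments in every library, Thy1 had at most 5 and Acta2 at most 44. The summed FPKM of the 11 was 1889 and 1867 in CT26 (951 and 921 from S100a4 alone) against 607 and 636.9 in MC38 (36.8 and 60.1 from S100a4). Of the 10 that passed the filter of the line test described below, 7 were called higher in CT26 and 2 higher in MC38, where 36.5% and 39.6% of all genes tested were. Of the other 6 epithelial markers, Vil1 was seen only in MC38, with 38 and 29 fragments, and Krt20 had 434 and 205 fragments in CT26 against 2 and 0. The summed FPKM of the 9 epithelial markers was 43.0 and 42.7 in the CT26 libraries and 1.29 and 0.964 in those of MC38, so it was lower in the line labelled epithelial. Krt18 (33.7 and 37.4) and Krt20 (8.45 and 4.41) made up nearly all of the CT26 sums. Of 11 immune cell markers, 3 (Cd3e, Nkg7 and Ncr1) were at 0 in every library, the summed FPKM of the 11 was 0.20 in each CT26 library and 1.36 to 1.53 in those of MC38, and Ptprc, the pan-leukocyte marker, had at most 3 fragments. Cd79a (30 and 24 fragments) and Cd3d (21 and 19) were seen in the MC38 libraries only, and their part in the levels described below was not tested.

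Levels are given as FPKM, fragments per kilobase of transcript for a library of fixed size, which allows genes to be compared with each other. B2m stood first in all 4 libraries and H2-T23 or Psmb9 last. In the CT26 shGFP library the order from high to low was B2m, H2-D1, Tapbp, H2-K1, Tap1, Tap2, Nlrc5, Psmb8, H2-T23 and Psmb9. In the MC38 shGFP library it was B2m, H2-K1, H2-D1, Tapbp, Tap1, Psmb8, Tap2, Psmb9, Nlrc5 and H2-T23. H2-K1, Psmb8 and Psmb9 stood 2 places higher in the MC38 order, Nlrc5 stood 2 places lower, and H2-D1, Tapbp, Tap2 and H2-T23 stood 1 place lower. With 1 library for each condition, no spread is known for neighbours in these orders.

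**Figure D1:**
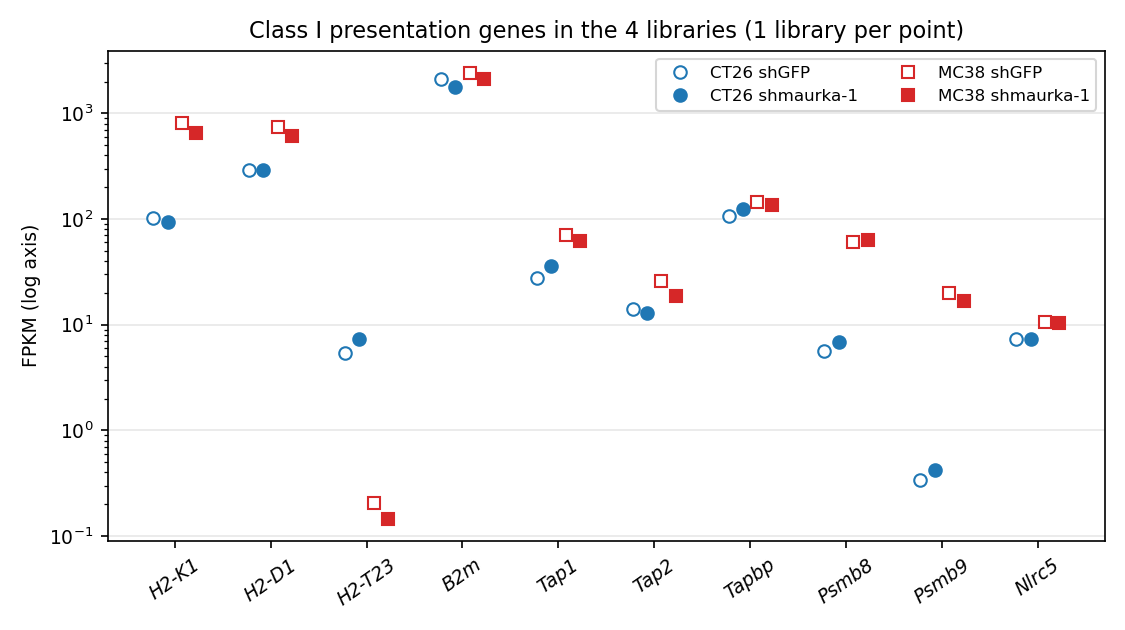
FPKM of the 10 genes on a log axis, with 1 point for each library, blue circles for CT26, red squares for MC38, open for shGFP and filled for shmaurka-1. The MC38 points lie above the CT26 points for 9 genes, and for H2-T23 they lie below, at 0.207 and 0.146 against 5.41 and 7.38.

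The comparison between the lines asked how much of each gene CT26 and MC38 cells contained. The quasi-likelihood test of edgeR was run over the 13984 genes that averaged 10 counts or more over the 4 libraries, with knockdown as a term and Benjamini-Hochberg adjustment over all of them. H2-T23 passed this filter only through the CT26 libraries, so it had to differ and is left out of the counts. Of the other 9 genes, which averaged 10 counts or more in each line, 8 were called higher in MC38, where 39.6% of all genes tested were, and 0 were called higher in CT26, where 36.5% were. Past 1.5-fold, 6 of the 9 (H2-D1, H2-K1, Psmb8, Psmb9, Tap1 and Tap2) were higher in MC38 against 32% of all genes, and 0 were higher in CT26 against 26.8%. The median log2 difference (MC38 minus CT26) was 1.02 over the 9 genes and 0.04 over all genes tested. Each line was represented by its shGFP and its shmaurka-1 library, and the spread came from the trend of all genes. The SE and adjusted p given below therefore do not cover variation between cultures of a line. As the lines differ in most genes, a call by itself says little, and the sizes below carry the description.

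H2-K1 and H2-D1 encode the classical heavy chains that present peptides to CD8+ T cells. H2-K1 (chr17:33996012-34000619 in GRCm38) had 4336 fragments in CT26 shGFP, 3558 in CT26 shmaurka-1, 44103 in MC38 shGFP and 34784 in MC38 shmaurka-1. The ranges of the lines did not overlap, and the difference was 7.92-fold (log2 2.99 ± 0.10, SE, edgeR adjusted p = 4.3356e-201). Only 14.7% of the genes tested differed more between the lines.

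H2-D1 (chr17:35263094-35267497) had 15661 and 13434 fragments in the shGFP and shmaurka-1 libraries of CT26, and 51594 and 42095 in those of MC38. It was 2.55-fold higher in MC38 (log2 1.35 ± 0.09, edgeR adjusted p = 1.4383e-49). In FPKM, H2-K1 stood at 0.34 and 0.33 of H2-D1 in the CT26 libraries and at 1.08 and 1.05 of it in those of MC38. By FPKM the heavy chain that led differed between the lines under both hairpins, narrowly in MC38 and with no spread known. By fragments, which are not per length, H2-D1 had more than H2-K1 in every library.

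The promoters of H2-K1 and H2-D1 are shown because both genes had lower, uncalled values in the shmaurka-1 library of each line, as described further on. The sequences come from RefSeq for GRCm38.p6 and run from 250 bases before to 50 bases after an annotated start, in the direction of the gene (H2-K1 on the minus strand, chr17:34000298-34000597, and H2-D1 on the plus strand, chr17:35262844-35263143). RefSeq gives H2-K1 2 such windows, and the one shown takes its start at 34000347, which lies 272 bases inside the gene extent given above, whereas the start of H2-D1 is the first base of its extent. Capitals mark GGGATTCCC (an NF-kB form), TGACGC (a CRE-like form) and CCAAT or its reverse, ATTGG (the Y box, bound by NF-Y).
H2-K1: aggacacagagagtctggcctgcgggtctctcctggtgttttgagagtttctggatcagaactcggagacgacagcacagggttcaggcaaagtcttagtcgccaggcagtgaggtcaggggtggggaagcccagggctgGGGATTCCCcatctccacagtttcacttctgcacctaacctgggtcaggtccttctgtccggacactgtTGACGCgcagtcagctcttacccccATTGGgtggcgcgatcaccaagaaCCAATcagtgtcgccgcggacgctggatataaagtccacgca
H2-D1: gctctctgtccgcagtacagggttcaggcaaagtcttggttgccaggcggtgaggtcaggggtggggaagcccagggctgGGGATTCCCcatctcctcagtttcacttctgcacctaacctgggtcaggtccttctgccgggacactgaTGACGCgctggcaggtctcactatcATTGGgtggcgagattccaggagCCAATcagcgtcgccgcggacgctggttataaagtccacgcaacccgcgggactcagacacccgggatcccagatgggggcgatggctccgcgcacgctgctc
In both genes TGACGC begins 69 bases after the first base of GGGATTCCC, and ATTGG begins a further 25 bases on. Distances from the starts are not compared, since the start used for H2-K1 is 1 of 2. Over the 99 bases from the NF-kB form to the end of ATTGG, 88.9% of positions were identical. GGGATTCCC lay in 0.353% of 32851 promoter windows of the same length, several for some genes, TGACGC in 7.4% and CCAAT in 37.4%, each searched on both strands. A match of letters is a description of these windows and says nothing on what binds there. Of the 10 genes, 8 had a promoter in the table, and Nlrc5 and Tap2 had no entry.

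B2m encodes beta-2-microglobulin, the light chain that every class I heavy chain needs. It lies on another chromosome (chr2:122147687-122153082), and had 25393 and 19772 fragments in the CT26 libraries against 34542 and 29867 in those of MC38. The ranges did not overlap, but the difference was small, 1.14-fold (log2 0.19 ± 0.09, edgeR adjusted p = 0.0454), and 86.5% of genes tested differed more. With total-count scaling the log2 difference was 0.53 (edgeR adjusted p = 2.976e-09). The call was lost in 4 of 8 alternative fits, with an adjusted p of up to 0.174, and in each of 4 further fits that left out 1 library and the knockdown term (log2 0.07 to 0.31, edgeR adjusted p = 0.0803 to 0.682). In FPKM, B2m exceeded the sum of H2-K1 and H2-D1 by 5.31 and 4.67 times in CT26 and by 1.55 and 1.67 times in MC38. CT26 thus held more light chain RNA for each heavy chain RNA than MC38, within the limits on heavy chain counting given above.

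The B2m promoter (chr2:122147437-122147736, plus strand) is shown for comparison with the heavy chain promoters. Capitals mark GAAANNGAA (a form of the core of an interferon-stimulated response element), the reverse of GGGACTTTC (an NF-kB form) and ATTGG.
B2m: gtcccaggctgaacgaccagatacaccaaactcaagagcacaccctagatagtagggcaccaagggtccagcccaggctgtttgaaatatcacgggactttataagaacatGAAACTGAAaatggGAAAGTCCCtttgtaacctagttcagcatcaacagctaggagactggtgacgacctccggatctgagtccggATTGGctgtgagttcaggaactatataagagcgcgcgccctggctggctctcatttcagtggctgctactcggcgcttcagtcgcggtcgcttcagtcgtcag
GAAANNGAA begins 139 bases before the start. These letters or their reverse lay in 2 of the 8 promoters, B2m and H2-T23, and in 8.56% of all promoters. GGGACTTTC lay in 0.353%. Other spellings of the interferon element core were not searched. The search therefore cannot show that the H2-K1 and H2-D1 windows lack such an element.

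H2-T23 encodes Qa-1, a nonclassical class I molecule that engages inhibitory NK cell receptors (chr17:36029977-36032701). It had 224 and 271 fragments in the CT26 libraries and 11 and 7 in those of MC38, the reverse of the other heavy chains among the 10 genes. Its fitted level was 34.2-fold higher in CT26 (log2 -5.09), and the log2 difference was -2.64 with log2(FPKM + 1), both given as a description with no test because the filter chose the gene through CT26. Its locus in the files also holds A930015D03Rik, a long noncoding RNA on the opposite strand that covers 100% of H2-T23 in the GENCODE vM39 annotation. A930015D03Rik had 1045 and 1004 fragments in CT26 and 12 and 22 in MC38. The library kit keeps the strand, but the sources used here do not say whether counting used it, so the 2 genes may not be separable.

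Of 14 other class I heavy chain genes outside the set, 11 passed the filter of the line test. Of these, H2-Q2, H2-Q6, H2-Q10 and H2-T24 passed only through CT26 and H2-K2 only through MC38, so these 5 had to differ and are not counted. Of the 6 that passed in both lines, 2 were called higher in MC38 and 4 higher in CT26, where 39.6% and 36.5% of all genes tested were. H2-Q4, with the most fragments of the list (4498 and 4191 in CT26, 4051 and 3870 in MC38), differed by -0.46 ± 0.10. H2-T22 was higher in MC38 (639 and 596 fragments against 2688 and 2105). H2-M3, which presents formylated peptides, was higher in CT26 (1153 and 1063 against 644 and 513).

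**Figure D2:**
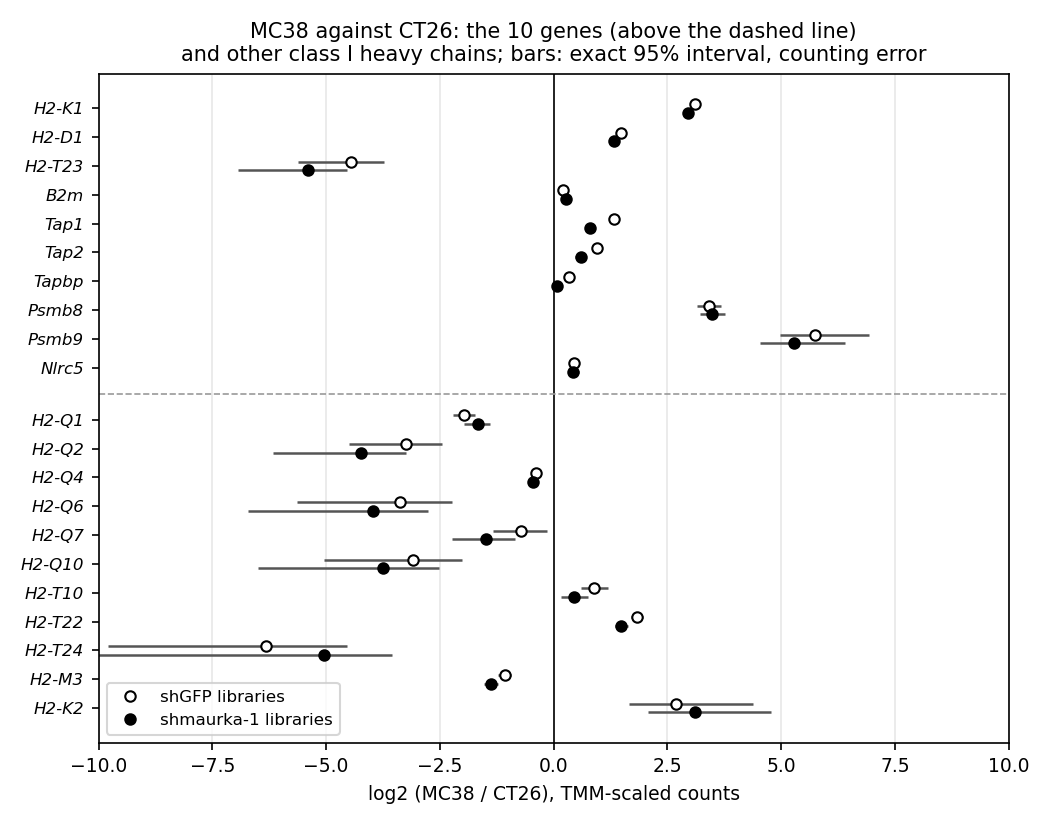
Log2 difference between MC38 and CT26, from TMM-scaled counts, for the 10 genes (above the dashed line) and the 11 other class I heavy chains that passed the filter, with open points for the shGFP and filled points for the shmaurka-1 libraries. Bars are exact 95% intervals for counting error, and those of H2-T24 run to the edge because MC38 had 0 and 1 fragments. Psmb9 lies farthest to the right at 5.74 and 5.27, and the other heavy chains lie on both sides of 0.

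Tap1 and Tap2 encode the subunits of the peptide transporter. Tap1 (chr17:34187556-34197225) had 1846 and 2171 fragments in the CT26 libraries and 5472 and 4776 in those of MC38, a difference of 2.03-fold (log2 1.02 ± 0.10, edgeR adjusted p = 2.5334e-23). Tap2 (chr17:34204479-34216321) had 1040 and 893 against 2384 and 1691, a difference of 1.66-fold (log2 0.73 ± 0.11, edgeR adjusted p = 3.257e-10). For both genes each MC38 library lay above each CT26 library. In FPKM, Tap1 stood at between 1.999 and 3.30 times the level of Tap2 in the 4 libraries.

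Tapbp encodes tapasin, which holds the heavy chain at the transporter while peptides are loaded. Tapbp (chr17:33919478-33929290) had 5739 and 6009 fragments in CT26 and 8569 and 7927 in MC38. Its difference of 1.11-fold (log2 0.16 ± 0.09, edgeR adjusted p = 0.117) was not called, and it was called with total-count scaling (log2 0.50) and with limma on FPKM (log2 0.28).

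Psmb8 and Psmb9 encode inducible catalytic subunits of the immunoproteasome, which take the places of the constitutive subunits Psmb5 and Psmb6. Psmb9 (chr17:34182030-34187330) had 10 and 11 fragments in the CT26 libraries against 691 and 576 in those of MC38, a 46.0-fold difference (log2 5.52 ± 0.26, edgeR adjusted p = 1.283e-100). Psmb8 (chr17:34198195-34201454) had 134 and 123 against 1684 and 1726, a 10.5-fold difference (log2 3.39 ± 0.15, edgeR adjusted p = 8.5516e-113). Of the genes tested, 7.27% differed more than Psmb9 and 13% more than Psmb8. These subunits and H2-T23 differed most among the 10 genes by counts. With limma on log2(FPKM + 1), which compresses low levels, the log2 difference was 3.80 for Psmb9, 3.13 for Psmb8, 2.87 for H2-K1 and -2.64 for H2-T23.

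The constitutive counterparts differed by 1.21 (Psmb5) and 0.37 (Psmb6) on the log2 scale between the lines. Psmb6 stood 279 and 210 times above Psmb9 in FPKM in the CT26 libraries and 6.29 and 6.81 times above it in those of MC38. Psmb5 stood 10.6 and 7.35 times above Psmb8 in CT26 and 2.39 and 1.74 times above it in MC38. Psmb10, the remaining inducible subunit, named here after its values were seen, had 239 and 265 fragments in CT26 and 1155 and 1488 in MC38, and its constitutive counterpart Psmb7 stood 24.4 and 20.8 times above it in CT26 and 4.08 and 3.10 times in MC38. All 3 inducible subunits were therefore higher in MC38 relative to their counterparts in each of the 4 pairs of libraries that differ in line.

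Psmb9, Tap1, Psmb8 and Tap2 lie side by side within 34292 bases of chromosome 17. Psmb9 and Tap1 point away from each other with 225 bases between their annotated starts, so that 275 bases of their promoter windows are the same. The window of Tap1 (chr17:34187306-34187605, plus strand, RefSeq for GRCm38.p6) is shown because these genes share it and yet differ in level.
Tap1: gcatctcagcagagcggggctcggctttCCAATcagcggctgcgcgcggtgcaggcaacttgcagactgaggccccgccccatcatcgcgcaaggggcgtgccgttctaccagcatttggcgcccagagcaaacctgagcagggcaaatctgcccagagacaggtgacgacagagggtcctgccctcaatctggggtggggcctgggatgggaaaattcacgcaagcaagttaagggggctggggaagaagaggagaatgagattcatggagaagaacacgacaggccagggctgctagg
Capitals mark CCAAT, and none of the other letters searched lay in this window. TTCNNNGAA, the form of a gamma-activated site, lay in the promoter of Psmb8 alone among the 8 and in 8.3% of all promoters. In FPKM, Psmb9 stood at 0.012 of Tap1 in both CT26 libraries and at 0.29 and 0.27 of it in those of MC38. Tap1 was 2.03-fold and Psmb9 46.0-fold higher in MC38, so genes that start 225 bases apart differed between the lines to unlike extents. The files give Tap1 and Psmb9 a joint locus, the genes overlap by 743 bases on opposite strands in GENCODE vM39, and how fragments there were divided was not tested.

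**Figure D3:**
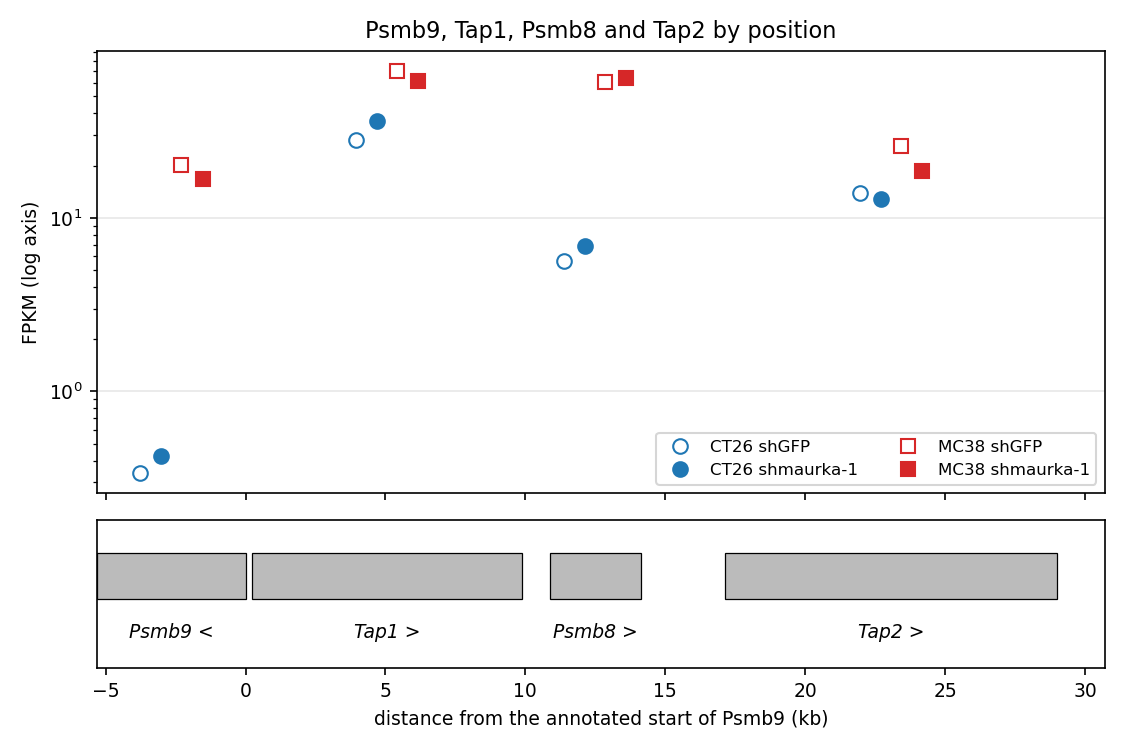
FPKM of Psmb9, Tap1, Psmb8 and Tap2 on a log axis (upper panel, 1 point for each library, markers as for the plot of all 10 genes) above their positions in kb from the annotated start of Psmb9 (lower panel, with < and > for the direction of the gene). The gap between the CT26 and MC38 points is widest at Psmb9 (0.340 and 0.423 against 20.1 and 16.6) and narrowest at Tap2.

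Nlrc5 encodes a transactivator that binds class I promoters with the RFX and NF-Y factors. Nlrc5 (chr8:94434335-94527272) had 1026 and 861 fragments in CT26 and 1658 and 1463 in MC38. It was 1.32-fold higher in MC38 (log2 0.40 ± 0.12, edgeR adjusted p = 0.00114), and 72.1% of the genes tested differed more. With total-count scaling the log2 difference was 0.74. Without the CT26 shmaurka-1 or the MC38 shGFP library, and with no knockdown term, this call was lost (log2 0.33 and 0.31, edgeR adjusted p = 0.0663 and 0.107). The difference in Nlrc5 was smaller than those in H2-K1, Psmb8 and Psmb9.

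Class II genes, which professional antigen presenting cells express, were examined beside these values because the lists of markers differ between the lines too. Cd74, the invariant chain, had 104 and 110 fragments in CT26 and 1242 and 963 in MC38, and H2-DMb1 had 3 and 0 against 336 and 306. Cd74 and H2-DMa passed the filter in both lines and were called higher in MC38, as were 39.6% of all genes, whereas H2-DMb1 and H2-Eb1 passed only through MC38 and had to differ. Ciita, their transactivator, had at most 3 fragments in any library, and the part of other cells in the MC38 levels of class I and class II genes was not tested.

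The comparison of main interest asked whether Aurora-A knockdown moved the presentation genes within the tumor cells. An effect common to both lines was fitted with edgeR, with cell line as a block, over the 11928 genes that averaged 10 counts or more in CT26 and also in MC38. This filter left out H2-T23 and kept 9 of the 10 genes. None of the 9 was called higher (1.67% of all genes tested were) and none was called lower (1.12% were). At an unadjusted p under 0.05, H2-K1, H2-D1, B2m and Tap2 had lower values, where 12.3% of all genes tested had such a p in either direction. None of the 9 was called under any of the 8 alternative fits, with a lowest edgeR adjusted p of 0.0790. Among these fits the DESeq2 Wald test called only 37 of all genes tested, limma 1 and the fit without the block 0. A lack of calls in those fits therefore says little. With 1 residual degree of freedom the main edgeR test takes its spread from all genes. The lines were the only replicates of the knockdown, and whether a library stands for its condition was not tested.

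Among the heavy and light chains, the RNA of H2-K1, H2-D1 and B2m was lower with shmaurka-1 in both lines. H2-K1 was at 0.892 of its control in CT26 (log2 -0.16, 95% interval -0.23 to -0.10) and at 0.805 in MC38 (log2 -0.31, -0.33 to -0.29). The common difference was -0.24 ± 0.09 (SE, edgeR adjusted p = 0.137). These intervals are exact binomial ones on the fragments of 2 libraries, and they cover counting error only.

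H2-D1 was at 0.933 of its control in CT26 (log2 -0.10, -0.13 to -0.07) and at 0.833 in MC38 (log2 -0.26, -0.28 to -0.25), with a common difference of -0.18 ± 0.09 (edgeR adjusted p = 0.335). In CT26 the deposited FPKM, with a pseudocount of 1, put the difference at -0.10 for H2-K1 and -0.02 for H2-D1. B2m was at 0.847 of its control in CT26 (log2 -0.24, -0.27 to -0.21) and at 0.882 in MC38 (log2 -0.18, -0.20 to -0.16), with a common difference of -0.21 ± 0.09 (edgeR adjusted p = 0.224). H2-T23 was 1.31-fold higher in CT26 with shmaurka-1 (log2 0.39, 0.13 to 0.66). In MC38 its 11 and 7 fragments gave a log2 difference of -0.55 (-2.23 to 0.88), so no difference was detectable there at this depth.

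Tap1 and Tap2 both had lower values in MC38, and in CT26 they had values of opposite sign, the difference between them not being tested. Tap1 was 1.28-fold higher with shmaurka-1 in CT26 (log2 0.35, 0.26 to 0.44) and at 0.891 of its control in MC38 (log2 -0.17, -0.22 to -0.11). Tapbp went the same ways, with a log2 difference of 0.19 in CT26 (0.13 to 0.24) and -0.08 in MC38 (-0.13 to -0.04). Tap2 was lower in MC38, at 0.724 of its control (log2 -0.47, -0.56 to -0.38), the lowest ratio of the 9 genes in either line, and in CT26 its log2 difference was -0.10 (-0.23 to 0.03). The common differences were 0.09 ± 0.10 for Tap1, 0.05 ± 0.09 for Tapbp and -0.29 ± 0.11 for Tap2, with edgeR adjusted p of 0.832, 0.916 and 0.191.

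None of the inducible proteasome subunits was called. Psmb8 had log2 differences of 0.00 in CT26 (-0.37 to 0.36) and 0.06 in MC38 (-0.03 to 0.16). The deposited FPKM of Psmb8 in CT26, 5.60 and 6.92, gives a ratio of 1.24 where the counts give 0.998, and why the units differ was not tested. Psmb9 was at 0.851 of its control in MC38 (log2 -0.23, -0.40 to -0.07), and in CT26 its 10 and 11 fragments leave an interval of -1.12 to 1.65. Their common differences were 0.04 ± 0.14 and -0.18 ± 0.21 (edgeR adjusted p = 0.961 and 0.837). Psmb10 had higher values with shmaurka-1 in both lines, with log2 differences of 0.27 in CT26 (0.01 to 0.53) and 0.39 in MC38 (0.28 to 0.51), and its common difference of 0.34 ± 0.14 was not called (edgeR adjusted p = 0.202).

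Nlrc5 was at 0.912 of its control in CT26 (log2 -0.13, -0.26 to -0.000145) and at 0.901 in MC38 (log2 -0.15, -0.25 to -0.05). The upper end in CT26 lay just below 0, and the deposited FPKM, with a pseudocount of 1, gave 0.0091 in CT26 and -0.04 in MC38, so the lower values of Nlrc5 rest on the counts. The common difference was -0.14 ± 0.12 (edgeR adjusted p = 0.725), and -0.02 with limma on FPKM.

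By the fold thresholds of the study, 1.5 for higher and 0.6 for lower, none of the 9 genes passed in CT26, where 3.2% of all genes were higher and 2.57% lower, or in MC38, where 2.47% were higher and 1.03% lower. By counting intervals, 2 genes in CT26 (Tap1 and Tapbp) lay above 0 against 22.1% of all genes and 4 (B2m, H2-D1, H2-K1 and Nlrc5) lay below 0 against 21.1%. In MC38, 0 lay above 0 against 22.8% of all genes, and 8, all but Psmb8, lay below 0 against 22.3%. Below 0 in both lines were 4 genes, where 7.47% of all genes were, and Tap1 and Tapbp lay above 0 in CT26 and below 0 in MC38, where 3.84% of all genes did. These intervals narrow as fragments increase, so a small difference excludes 0 more readily in a gene with many fragments. The shares are over genes of all depths and were not matched for depth. The 9 genes had a median log2 difference of -0.10 for CT26 and -0.18 for MC38, beside -0.0052 and -0.00052 over all genes tested. In MC38 the differences were thus nearly all small and downward, and in CT26 they went both ways.

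**Figure D4:**
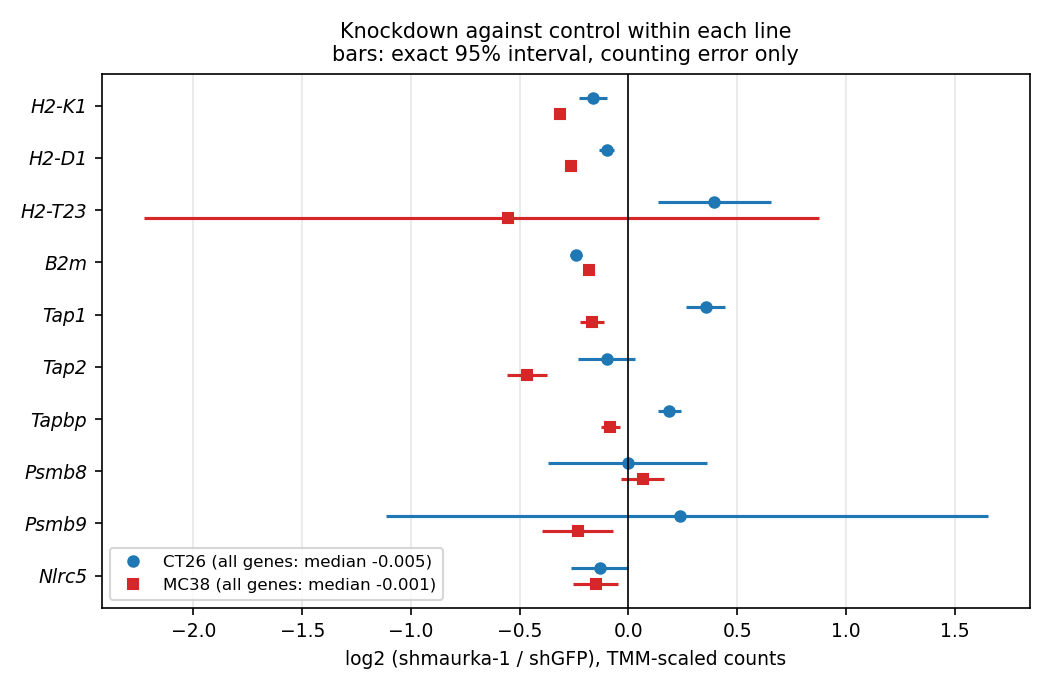
Log2 ratio of the shmaurka-1 to the shGFP library for the 10 genes in CT26 (blue circles) and MC38 (red squares), with exact 95% intervals for counting error. In MC38, 8 points (all but Psmb8 and H2-T23) lie left of 0 with intervals that exclude it. In CT26, H2-T23, Tap1 and Tapbp lie right of 0 with intervals that exclude it, and Psmb9 lies right of 0 with an interval that includes it.

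The partners of the 10 genes were described in the same way. Of 14 other heavy chain genes, 6 passed the filter of the knockdown test and 0 were called, and their median log2 difference was 0.02 in CT26 and -0.27 in MC38. By counting intervals, H2-Q1 alone lay below 0 in CT26, and 2 of the 6 (H2-M3 and H2-T22) lay below 0 in MC38, against 21.1% and 22.3% of all genes. H2-Q1 had the largest difference in CT26, -0.54 (-0.73 to -0.36), from 617 to 390 fragments, with -0.25 (-0.57 to 0.06) in MC38 and a common difference of -0.42 ± 0.16 that was not called (edgeR adjusted p = 0.177). H2-T22 had a log2 difference of 0.02 in CT26 (-0.14 to 0.18) and -0.32 in MC38 (-0.41 to -0.24). H2-Q4, which had more fragments, differed by 0.02 (-0.04 to 0.08) and -0.04 (-0.10 to 0.03). H2-M3 differed by 0.0034 (-0.12 to 0.12) and -0.30 (-0.47 to -0.13), and H2-T10 by 0.22 (-0.12 to 0.57) and -0.21 (-0.46 to 0.03).

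Of 13 loading and trimming partners, 0 were called, with medians of 0.14 in CT26 and -0.02 in MC38. Hspa5, the chaperone BiP, had a common log2 difference of 0.19 ± 0.08, the chaperones Calr and Canx, which fold heavy chains, had 0.05 ± 0.09 and 0.19 ± 0.09, Pdia3, the ERp57 of the loading complex, had 0.14 ± 0.09, and Sec61a1, a channel subunit of the endoplasmic reticulum, had 0.15 ± 0.09. Erap1, which trims peptides and is named after its values were seen, had lower values in both lines, with a common difference of -0.29 ± 0.11 (edgeR adjusted p = 0.153). Of 8 proteasome partners, 0 were called, with medians of -0.04 in CT26 and 0.15 in MC38. The common difference was 0.13 ± 0.09 for Psme3, a proteasome activator, 0.04 ± 0.10 for Pomp, an assembly factor, and -0.06 ± 0.10 and -0.14 ± 0.11 for the constitutive subunits Psmb7 and Psmb6. Psmb5, the constitutive counterpart of Psmb8, had lower values in both lines, with log2 differences of -0.28 in CT26 (-0.42 to -0.14) and -0.37 in MC38 (-0.46 to -0.29), and its common difference of -0.33 ± 0.11 missed the threshold (edgeR adjusted p = 0.0930).

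Among 14 regulators of class I genes, 1, Stat2, rose with knockdown and 0 fell, beside 1.67% and 1.12% of all genes. Stat2, a factor that acts downstream of type I interferon, had 5305 fragments in CT26 shGFP, 6582 in CT26 shmaurka-1, 4833 in MC38 shGFP and 6195 in MC38 shmaurka-1. In each line the shmaurka-1 library was the higher. Stat2 rose by 0.41 ± 0.10 on the log2 scale (1.33-fold, edgeR adjusted p = 0.00203), with 0.43 in CT26 and 0.39 in MC38. It was called in 5 of 8 alternative fits, and not with the DESeq2 Wald test, with limma on FPKM or without the block, and its adjusted p over the alternatives ran from 0.00223 to 1.

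The other regulators were not called. Irf1, an activator of class I and immunoproteasome genes that is named after its values were seen, had a common log2 difference of 0.02 ± 0.11, Irf9 of 0.14 ± 0.10, Nfkb1 of -0.15 ± 0.10, Rela of 0.13 ± 0.10 and Nfya of -0.13 ± 0.10. The rise of Stat2 stood beside lower, uncalled values of H2-K1, H2-D1 and B2m in the same libraries.

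**Figure D5:**
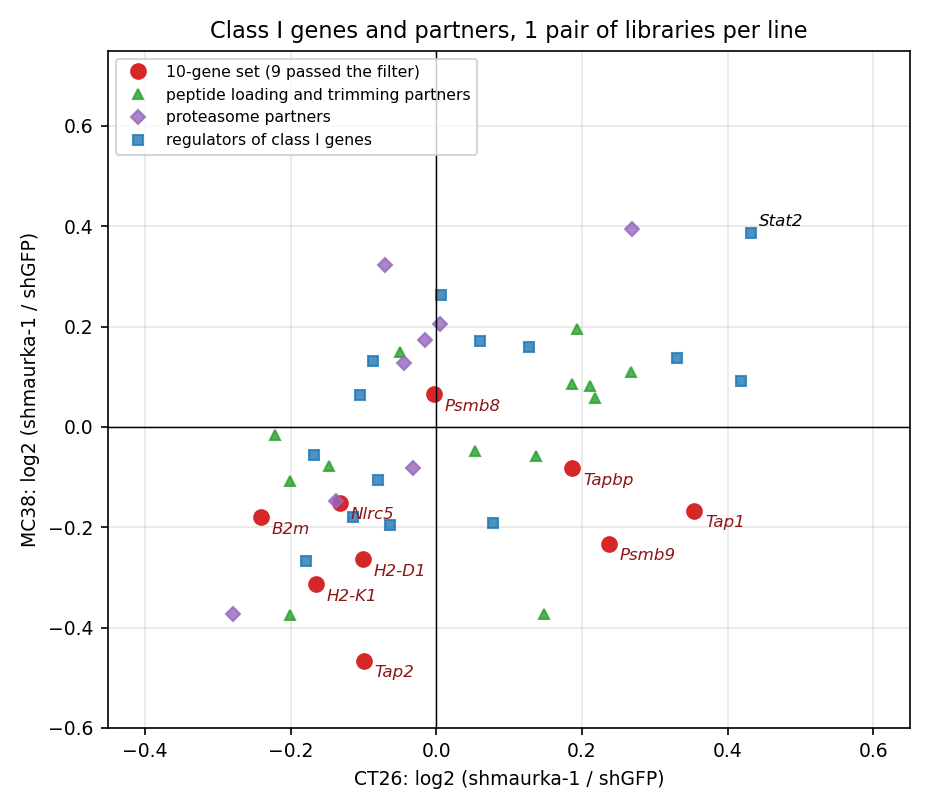
Log2 ratio of shmaurka-1 to shGFP in CT26 (horizontal) and MC38 (vertical), from 1 pair of libraries for each line, for the 9 class I genes that passed the filter (red), loading and trimming partners (green), proteasome partners (purple) and regulators (blue). Stat2 (0.43 and 0.39) lies at the upper right, and 4 of the 9 genes, with H2-K1 at -0.16 and -0.31, lie at the lower left beyond counting error in both lines.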

How the data were processed

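RNA of CT26 and MC38 cells carrying the shGFP or the shmaurka-1 hairpin was sequenced with a strand-specific kit, 1 library for each of 4 conditions. The submitters' processing notes name Trimmomatic 0.36, HISAT2, Cufflinks 2.2.1 and Cuffdiff. They name GRCm39, but 99.8% of 34641 genes matched by symbol overlapped their GRCm38.p6 positions, so GRCm38 is used for coordinates. The authors deposited estimated counts per gene, scaled between libraries, and the deposited FPKM values are per length and library size. Between 97.1% and 97.7% of nonzero counts were whole multiples, within 0.05, of a step of each library, and dividing by it gave 23752269 (shGFP) and 22207768 (shmaurka-1) fragments in CT26, and 22915543 and 22803054 in MC38. Intervals on fragments cover counting error only.

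Estimated counts were rounded to whole numbers and tested with edgeR 4.0.16 (quasi-likelihood, TMM, R 4.3.3) with terms for line and knockdown, 1 residual degree of freedom and an infinite estimated prior, so that the spread comes from the trend of all genes. Ratios within a line used TMM-scaled counts with 1 count added. The line test needed a mean of 10 counts over the 4 libraries and the knockdown test a mean of 10 in each line. The fits were also run on counts simulated with the spread estimated from these data, which cannot test whether that spread holds between cultures. DESeq2 1.42.0, limma 3.58.1, other scalings, filters and units were alternatives. Python 3.11.15, scipy 1.17.1, numpy 2.4.6, pandas 2.3.3 and matplotlib 3.10.9 were used for the rest. The genes, lists and tests were chosen with earlier results of these data known. All 10 genes are named, with up to 5 genes of each other list by total counts (Irf1, Psmb10 and Erap1 were added after their values were seen), the markers needed for a cell type and Aurka. Genes of the lists that were called between the lines are counted but not all named. Cdh2, a mesenchymal marker, was called lower with knockdown (log2 -0.39 ± 0.12, edgeR adjusted p = 0.0459), as were 1.12% of all genes tested. A further regulator is not reported here. Nothing says that the libraries of a line came from separate cultures.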

Additional observations from a re-analysis of the deposited data

Results flagged for a closer look

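Tap1 and Tapbp differed in direction between the lines. The log2 difference (shmaurka-1 minus shGFP) of Tap1 was 0.35 in CT26 and -0.17 in MC38, so the MC38 value lay lower by a difference of -0.52. That of Tapbp was 0.19 and -0.08, with a difference of -0.27. For both genes each interval for counting error excluded 0, but with 1 library for each condition this contrast was not tested.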

How the results depend on the processing

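Over 401 alternative values, the calls on the 10 genes held except as given here. The line difference of B2m lost its call in 4 of the planned fits and that of Tapbp gained one in 2. Some differences within a line moved outside their counting intervals. In MC38, Nlrc5 moved from -0.15 to -0.04 with FPKM. In CT26, H2-D1 moved from -0.10 to -0.02 with FPKM. With total-count scaling, H2-K1, H2-D1 and B2m moved in MC38 from -0.31, -0.26 and -0.18 to -0.34, -0.29 and -0.20. In CT26, Nlrc5 reversed from -0.13 to 0.00914 with FPKM and a pseudocount of 1 and to 0.0102 with a pseudocount of 0.1. None of the 9 genes was called for knockdown in any fit, whereas the count of genes called over the whole table fell from 333 to 37 with the DESeq2 Wald test, to 1 with limma on log2(FPKM + 1) and to 0 with no replicate block by line, where 13 had an unadjusted p under 0.05. Genes over 1.5-fold higher numbered 203 in CT26 and 127 in MC38 with FPKM and a pseudocount of 1, and 2595 and 3076 with no filter. Genes lower past the threshold numbered 77 and 27 with FPKM and a pseudocount of 1, 260 and 116 with a pseudocount of 0.1, 2981 and 2841 with no filter, and 512 and 241 with a threshold of 1/1.5. The causes were not tested, except that no filter admits genes with few counts. Total-count scaling moved the median of all genes between the lines by 0.34 (log2), with 66.6% in place of 52.1% of called genes higher in MC38, and the share of knockdown calls that were higher from 59.8% to 49.1%. Of the 10 genes, 8 ordered the libraries the same by TMM-scaled counts as by FPKM, and Psmb8 and Nlrc5 did not. Each library was left out of the line comparison in turn, a choice made after seeing the data, with the knockdown term dropped and the lone library of a line assumed to vary like the pair of the other. These fits called 8464 to 9576 genes, beside 10644, and 6 to 7 of the 9 that passed in both lines, beside 8. B2m lost its call in all 4 and Nlrc5 without CT26 shmaurka-1 or MC38 shGFP. For the knockdown with line as a block, 3 libraries leave no residual degree of freedom, so no such fit was made. The depth limits Psmb9 in CT26 and H2-T23 in MC38.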
